A study of Rattus norvegicus with 48 samples.

Results

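The miR-200 family comprised 9 of the 764 mature miRNAs listed in the rat liver count table, chosen by name: every miRNA called miR-200a, miR-200b, miR-200c, miR-141 or miR-429, on either hairpin arm. All 9 had reads, and 6 of them were among the 301 miRNAs that passed the filter on low values (at least 5 RPM, reads counted on a miRNA scaled to equal library totals, in at least 3 of the 48 libraries). The 6 were rno-miR-200b-3p, rno-miR-200a-3p, rno-miR-429, rno-miR-141-3p, rno-miR-200c-3p and rno-miR-200a-5p. The other 3, rno-miR-200b-5p, rno-miR-141-5p and rno-miR-200c-5p, are described by their reads alone.

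The family is known as a marker of epithelial cells. Its guide strands repress ZEB1 and ZEB2, transcription factors that switch off E-cadherin, and ZEB1 and ZEB2 in turn repress the promoters of the family. In liver these miRNAs are characteristic of the epithelium that lines the bile ducts, and hepatocytes, the bulk of the tissue, express them weakly. The RNA here came from whole liver, so fewer cells of a type and less miRNA per cell cannot be told apart.

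Male Sprague-Dawley rats were dosed once daily with thioacetamide (TAA), a liver toxicant and rodent carcinogen, at 4.5 mg/kg (low dose), 15 mg/kg (middle dose) or 45 mg/kg (high dose). Dosing lasted 3, 7, 14 or 28 days (named 3-d to 28-d), and controls of each time point had vehicle alone. Livers of 3 of the 5 rats in a group were sequenced, which gave 12 treatment conditions, 4 control groups and 48 libraries. Libraries are named here by group and by the running number, 1 to 48, in the sample labels.

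The hairpins of the family lie in 2 clusters. In the RefSeq annotation of GRCr8, the miR-141 and miR-200c hairpins were 346 bases apart on the minus strand of chromosome 4. Those of miR-429 and miR-200a were 950 bases apart and those of miR-200a and miR-200b 689 bases apart, on the minus strand of chromosome 5. Neighbouring miRNA hairpins are often cut from a common transcript. Mature sequences in the RefSeq table matched 6 of the 9 members. Of the guide strands of the chromosome 4 cluster, rno-miR-141-3p was called lower in 1 condition and rno-miR-200c-3p higher in 4 others. They are shown first, with the seed (bases 2 to 8, which pair with targets) in capitals.
rno-miR-141-3p: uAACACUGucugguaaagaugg
rno-miR-200c-3p: uAAUACUGccggguaaugaug
These lie at chr4:159209540-159209561 and chr4:159209969-159209989. They differ at 4 of the 21 positions compared, counted from 1 at the 5′ end, as C4U, U9C, U11G and A17U, and the C4U difference is in the seed. By seed, miR-200c is grouped with miR-200b and miR-429, and miR-141 with miR-200a. The 5p strands of the chromosome 5 cluster are shown because both are members with few reads and a common seed.
rno-miR-200a-5p: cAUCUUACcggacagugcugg
rno-miR-200b-5p: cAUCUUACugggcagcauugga
These lie at chr5:171930770-171930790 and chr5:171931548-171931569 and differ at 5 of the 21 positions compared, all outside the seed. How the counting divided reads that match more than 1 member was not tested.

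Total counts on miRNAs were between 293331 and 14906217 per library (median 10237542). The lowest total was that of control 3-d replicate 1, in which 158 reads fell on the family, against 2750 to 17093 in the other 47 libraries. In that library the 4 miRNAs of red blood cells summed to 81096 normalized RPM, against 786 to 9240 in the others, and the 4 hepatocyte miRNAs to 103835 normalized RPM, against 203869 to 382506. Results at 3-d are therefore given with and without it. A second group of libraries stood apart over the whole profile. On the first principal component of the 295 tested miRNAs outside the family, which held 24.4% of the variance over 47 libraries, the 9 libraries numbered 40 to 48 lay between -7.24 and -5.11. These are all the low dose libraries of 3-d, 7-d and 14-d. The 38 others spanned -7.64 to 7.33. Of these, 1 lay at or below -5.11, high dose 7-d replicate 27 (-7.64), and the next were high dose 3-d replicate 22 (-3.83) and low dose 28-d replicate 29 (-3.54). The labels do not say what the running number stands for, so a low dose effect at 3-d, 7-d or 14-d and whatever else sets these 9 libraries apart cannot be told apart. Some results at high dose 7-d and low dose 28-d are also given without replicates 27 and 29, a choice made after seeing the data. In both libraries rno-miR-429 had fewer reads than rno-miR-200a-3p (ratios of 0.967 and 0.592), unlike in replicate 22 (1.475). Replicate 22 lay further out than replicate 29, and no fold changes are given without replicate 22.

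rno-miR-200b-3p was the most abundant member, ranked 71 of 301 by mean normalized RPM (upper quartile normalized RPM), followed by rno-miR-429 (rank 111), rno-miR-200a-3p (134), rno-miR-141-3p (142), rno-miR-200c-3p (242) and rno-miR-200a-5p (288). Over the 12 control libraries, rno-miR-200b-3p made up 58.1% ± 8.8 (SD) of the family's reads, rno-miR-429 21.2% ± 5.6, rno-miR-200a-3p 9.96% ± 2.39, rno-miR-141-3p 8.94% ± 4.93 and rno-miR-200c-3p 0.951% ± 0.725. Without control 3-d replicate 1, where 5 of the 158 reads were rno-miR-200c-3p, its share was 0.750% ± 0.208. The chromosome 5 cluster thus gave 90.0% ± 4.8 of the reads in controls and 87.4% ± 5.7 in the 36 treated libraries. The summed level of all 9 members was 309 to 1416 normalized RPM over the 47 deeper libraries, with a median of 808, and 660 to 1416 in the 11 deeper controls. The lowest was low dose 28-d replicate 29, and the 3 libraries of low dose 7-d had 494, 497 and 399, against 1022, 1093 and 1014 in their controls.

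**Figure D1:**
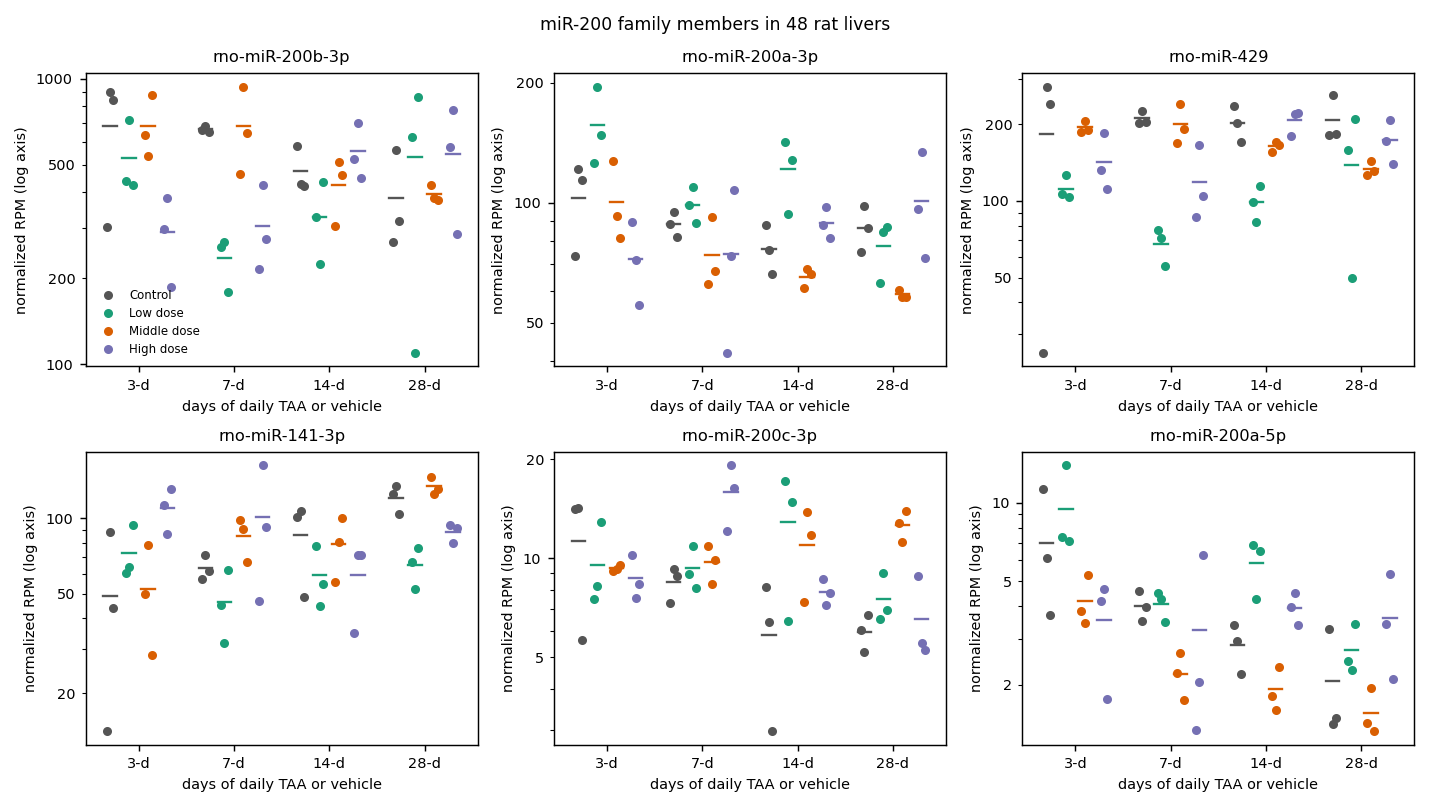
Normalized RPM (log axis) of the 6 tested members in each of the 48 libraries, by days of dosing and dose. Points are libraries and bars are means of 3. The 3 low dose 7-d points of rno-miR-429 (55.8 to 76.7) lie below its controls (202 to 225), whereas those of rno-miR-200a-3p overlap with theirs.

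By edgeR, each of the 12 conditions was set against its 3 time-matched controls. A differentially expressed miRNA (DEM) passed a fold change of 1.5 together with an unadjusted p of 0.05, and the Benjamini-Hochberg adjusted p over all 301 miRNAs is given beside it. Over the 72 pairs of a member and a condition, 15 were DEMs, 9 lower and 6 higher than controls, and 11 of the 15 also had an adjusted p below 0.05. The members called moved in both directions. rno-miR-429 and rno-miR-200b-3p were DEMs only in the lower direction, in 4 and 3 conditions. rno-miR-200c-3p was a DEM only in the higher direction, in 4 conditions. rno-miR-141-3p was lower in 1, rno-miR-200a-3p higher in 1, and rno-miR-200a-5p lower in 1 and higher in 1.

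These counts are set beside the share of all tested miRNAs that were DEMs. At low dose, 0, 2, 4 and 1 of the 6 were DEMs at the 4 time points in order, and of all 301 tested 16.6%, 28.9%, 32.6% and 12.3%. At middle dose the members called were 0, 1, 1 and 2, and the share of all tested 2.99%, 15.9%, 17.3% and 32.9%. At high dose they were 1, 3, 0 and 0, and the share of all tested 11.3%, 21.3%, 9.3% and 15.3%. The median log2 fold change of the 6 members was between -0.45 (high dose 3-d) and 0.22 (high dose 14-d), and that of all tested miRNAs between -0.06 (low dose 28-d) and 0.28 (high dose 3-d).

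**Figure D2:**
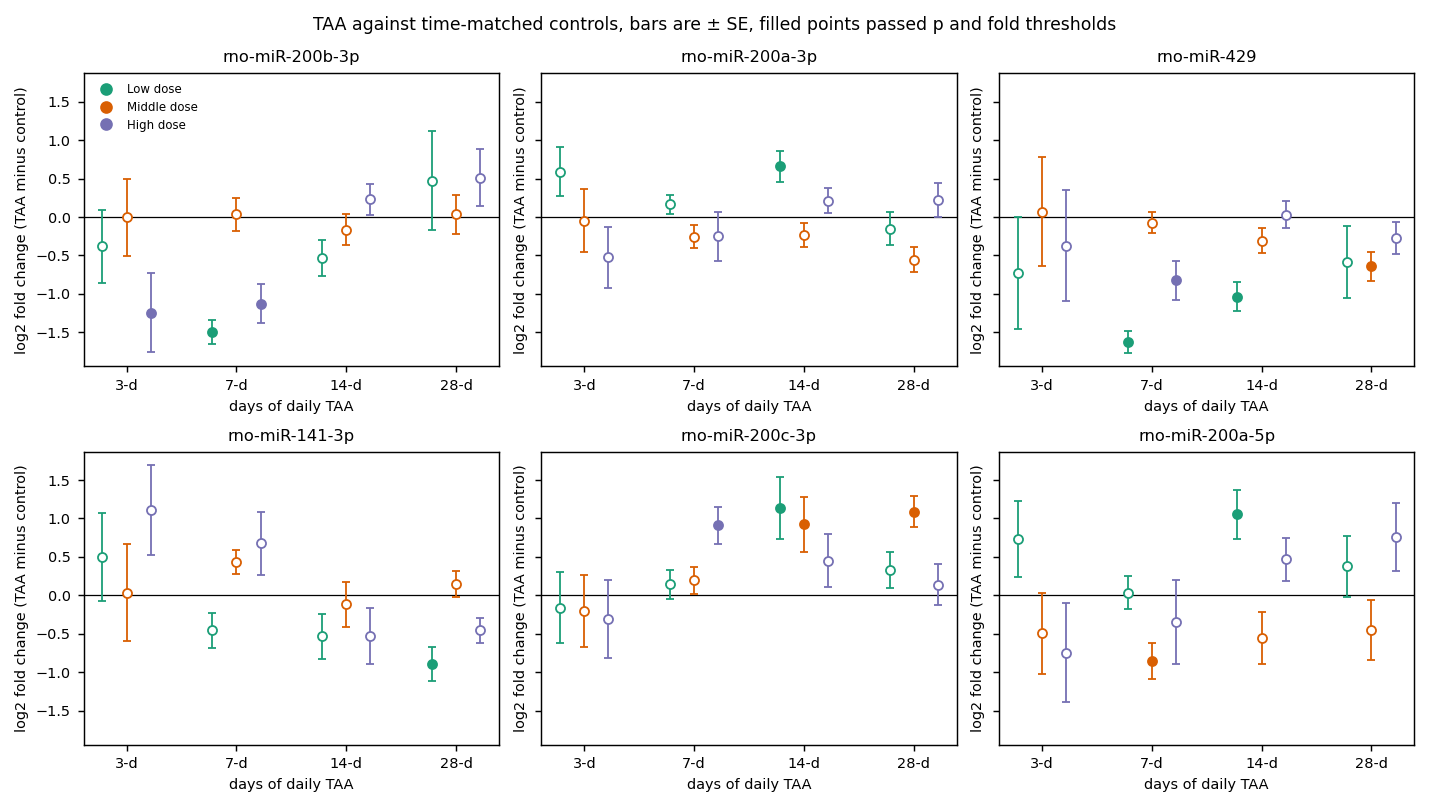
Log2 fold change of TAA against time-matched controls (edgeR fits of 6 libraries) for the 6 tested members in 12 conditions. Bars are ± SE and filled points are DEMs. Filled points of rno-miR-429 and rno-miR-200b-3p lie below 0 and those of rno-miR-200c-3p above 0.

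The changes furthest from 0 among the 72 were those of the chromosome 5 guide strands rno-miR-429 and rno-miR-200b-3p at low dose 7-d. rno-miR-429, which shares its seed group with miR-200b and miR-200c, had 76.7, 71.5 and 55.8 normalized RPM in the treated livers and 202, 225 and 204 in the controls. The groups did not overlap, and the level was 3.09-fold lower (log2 -1.63 ± 0.14 SE, edgeR adjusted p = 8.00e-05). rno-miR-200b-3p had 258, 268 and 180 normalized RPM against 661, 685 and 650 in controls. These groups did not overlap either, and the level was 2.83-fold lower (log2 -1.50 ± 0.15 SE, edgeR adjusted p = 0.000211). rno-miR-200a-3p, whose hairpin lies between those of the other two, had 98.5, 109 and 88.9 against 88.1, 94.8 and 82.1, with a log2 fold change of 0.16 ± 0.12 (edgeR adjusted p = 0.296). Its groups overlapped. rno-miR-141-3p had 45.2, 31.9 and 62.2 against 57.2, 71.5 and 61.6, a log2 fold change of -0.46 ± 0.23 (edgeR adjusted p = 0.140). The calls of rno-miR-429 and rno-miR-200b-3p held under all 10 alternatives and with each of the 6 libraries left out.

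At low dose 14-d the members moved in both directions. rno-miR-429 had 99.0, 82.6 and 114 normalized RPM against 235, 201 and 171 in controls, 2.05-fold lower (log2 -1.04 ± 0.19 SE, edgeR adjusted p = 0.00177). rno-miR-200b-3p had 328, 223 and 436 against 582, 427 and 419. Its log2 fold change of -0.53 ± 0.23 was below the fold threshold and its groups overlapped (edgeR adjusted p = 0.0866). In the same livers the strands of the miR-200a hairpin were higher. rno-miR-200a-3p had 142, 93.5 and 128 normalized RPM against 87.6, 76.0 and 66.3 (log2 0.66 ± 0.20, edgeR adjusted p = 0.0221). rno-miR-200a-5p, the other arm, had 6.89, 4.27 and 6.51 against 3.39, 2.94 and 2.19 (log2 1.05 ± 0.32, edgeR adjusted p = 0.0224). Neither overlapped with its controls. The call of rno-miR-200a-3p was lost under 7 of 10 alternatives and without low dose 14-d replicate 40 or control 14-d replicate 15, and that of rno-miR-200a-5p with all 12 controls pooled, whereas that of rno-miR-429 held under all 10 and with each library left out.

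At low dose 3-d no member was a DEM with all 6 libraries, and leaving out control 3-d replicate 1 gave 2, beside 23.6% of all tested without it. rno-miR-429 had 106, 126 and 103 normalized RPM in the treated livers and 280 and 240 in control 3-d replicates 2 and 3, but 25.4 (9 reads) in replicate 1. Its log2 fold change was -0.73 ± 0.73 with replicate 1 (edgeR adjusted p = 0.568) and -1.22 ± 0.14 without it (edgeR adjusted p = 0.00476). rno-miR-200b-3p, at 437, 718 and 423 against 302, 901 and 845, had -0.38 ± 0.48 with replicate 1 (edgeR adjusted p = 0.654) and -0.73 ± 0.24 without it, past the unadjusted threshold (edgeR adjusted p = 0.0697). rno-miR-200a-3p, at 126, 195 and 148 against 73.3, 121 and 114, had 0.59 ± 0.32 with it (edgeR adjusted p = 0.325) and 0.41 ± 0.20 without it (edgeR adjusted p = 0.179). Its groups did not overlap.

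The number of rno-miR-429 reads per read of rno-miR-200a-3p in the same library depends on no normalization. It was 0.845, 0.643 and 0.698 at low dose 3-d, 0.779, 0.654 and 0.627 at low dose 7-d, and 0.696, 0.884 and 0.893 at low dose 14-d. In the 11 deeper controls it was 2.11 to 2.68, and in the 38 libraries outside those 3 groups it was 0.592 to 2.84 with a median of 2.32. Of these 38, the ratio was below 1 in 2, low dose 28-d replicate 29 (0.592) and high dose 7-d replicate 27 (0.967), and at least 1.47 in the others. The 11 libraries with a ratio below 1 spanned -7.64 to -3.54 on the first principal component of the other miRNAs, and 1 of the 36 libraries with a ratio above 1, high dose 3-d replicate 22 (-3.83), fell within that span. The ratio in control 3-d replicate 1 was 0.346, from 9 and 26 reads.

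**Figure D3:**
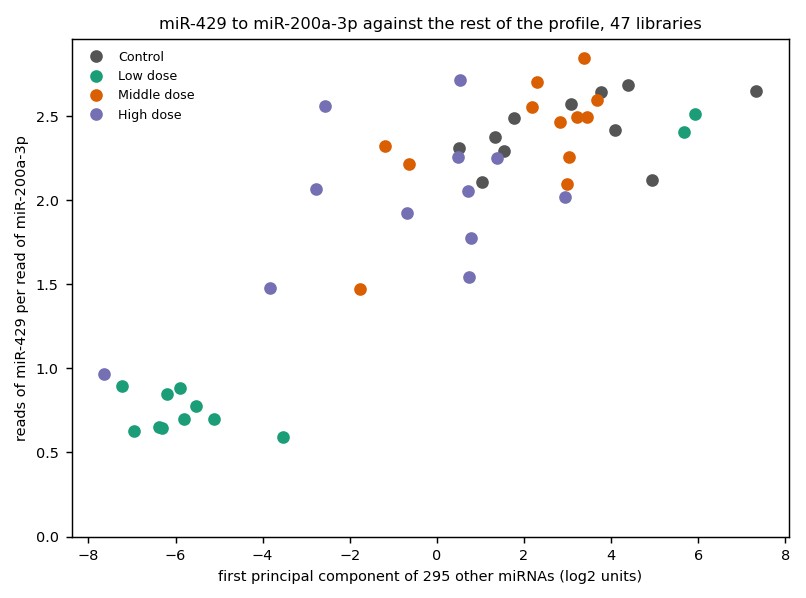
Reads of rno-miR-429 per read of rno-miR-200a-3p against the first principal component of 295 miRNAs outside the family, in 47 libraries. The 11 points below a ratio of 1 are 10 low dose libraries and 1 high dose library, all at or below -3.54 on the component.

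The ratio of rno-miR-200b-3p to rno-miR-200a-3p was 2.02 to 3.67 over the 9 libraries of low dose 3-d, 7-d and 14-d and 7.22 to 7.91 in the controls of 7-d. Unlike the ratio above it did not set these 9 apart from the controls, since control 28-d replicate 16 had 3.56. High dose 3-d replicates 22 and 24 (3.34 and 3.38), high dose 7-d replicate 27 (2.55) and low dose 28-d replicate 29 (1.298) were as low. The ratio of rno-miR-429 to rno-miR-200b-3p, members of one cluster and one seed group, was 0.298, 0.266 and 0.310 at low dose 7-d against 0.306, 0.329 and 0.315 in controls, with overlap. At 14-d it was 0.302, 0.370 and 0.262 against 0.404, 0.471 and 0.407, and at 3-d 0.243, 0.175 and 0.244 against 0.311 and 0.284 in the 2 deeper controls, in both cases without overlap. Over 47 libraries, log2 (normalized RPM + 1) of rno-miR-429 and rno-miR-200b-3p had a Pearson's r of 0.81, and deviations from the group means one of 0.91. For rno-miR-429 and rno-miR-200a-3p, r was -0.02 over libraries and 0.31 for the deviations. The libraries share depth and normalization, and groups of 3 are not independent points, so these are descriptions.

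**Figure D4:**
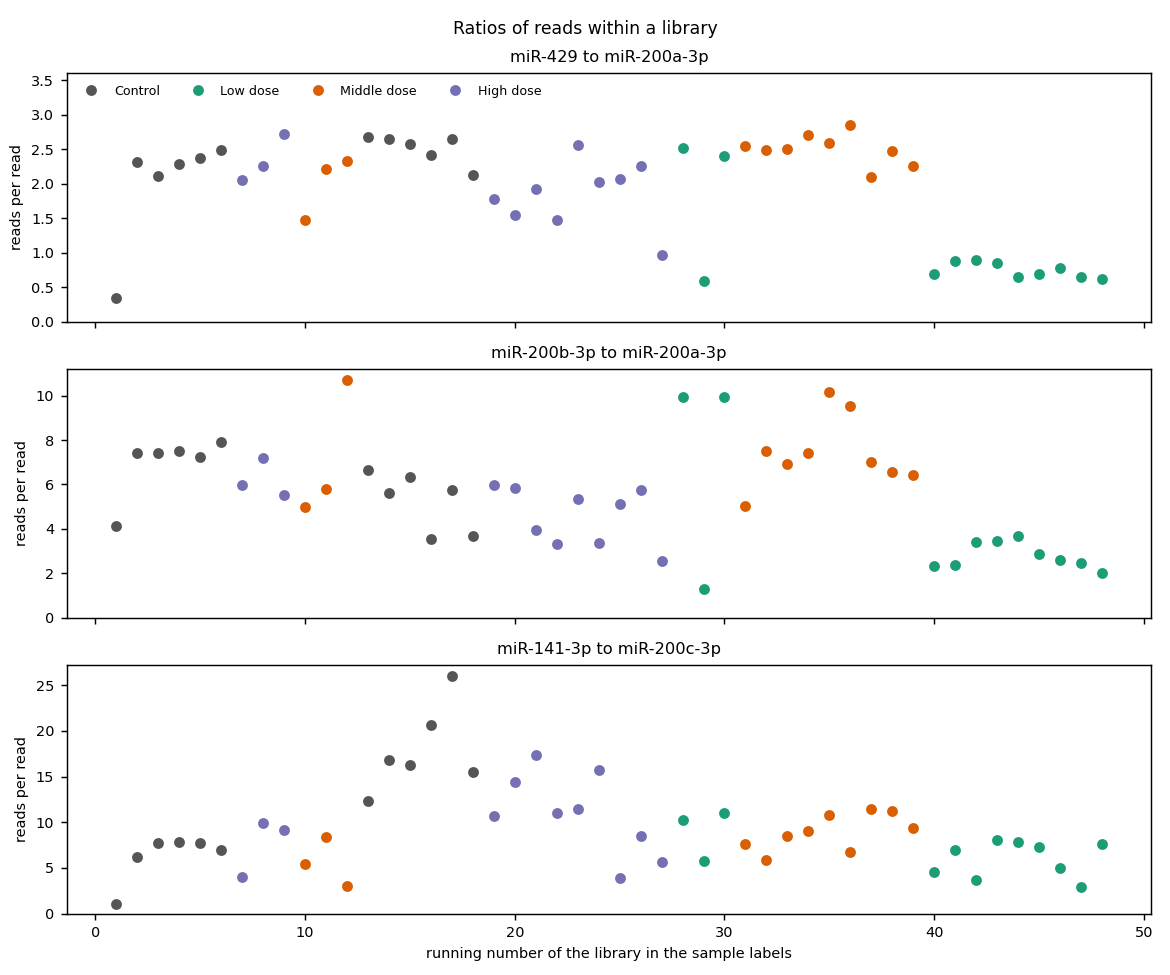
Ratios of reads of 2 members within each of the 48 libraries, by the running number in the labels, coloured by dose. The ratio of miR-429 to miR-200a-3p lies below 1 in libraries 1, 27, 29 and 40 to 48, and the ratio of miR-141-3p to miR-200c-3p lies above every other library in controls 16 and 17 (20.7 and 25.98).

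At low dose 28-d the 3 livers spread widely, with replicate 29 apart from the other two in rno-miR-200b-3p and rno-miR-429. rno-miR-200b-3p had 624, 110 and 863 normalized RPM in replicates 28, 29 and 30, and 267, 564 and 318 in controls. Its log2 fold change was 0.47 ± 0.65 with all libraries (edgeR adjusted p = 0.738). Without replicate 29 it was 0.96 ± 0.32 and passed the unadjusted threshold (edgeR adjusted p = 0.130). Replicate 29 was the lowest of the 3, so leaving it out raises the value by itself. The share of all tested past the thresholds without replicate 29 is not given. rno-miR-429 had 158, 49.9 and 208 against 181, 260 and 183, a log2 fold change of -0.59 ± 0.47 (edgeR adjusted p = 0.555) and of -0.19 ± 0.24 without replicate 29 (edgeR adjusted p = 0.669). rno-miR-141-3p was the member called. It had 66.9, 52.2 and 76.5 normalized RPM against 126, 134 and 104 (log2 -0.89 ± 0.22, edgeR adjusted p = 0.142), with no overlap, and -0.76 ± 0.19 without replicate 29 (edgeR adjusted p = 0.0634). Its call was lost with all 12 controls pooled.

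At high dose 7-d 3 members were DEMs. rno-miR-200b-3p had 215, 423 and 274 normalized RPM against 661, 685 and 650 in controls, 2.19-fold lower (log2 -1.13 ± 0.25, edgeR adjusted p = 0.0305). rno-miR-429 had 86.6, 166 and 104 against 202, 225 and 204, 1.77-fold lower (log2 -0.82 ± 0.25, edgeR adjusted p = 0.0768). Neither overlapped with its controls. Without replicate 27 the log2 fold changes were -1.06 ± 0.29 and -0.74 ± 0.28, and both were still DEMs. The call of rno-miR-429 was lost with all 12 controls pooled, whereas that of rno-miR-200b-3p held under all 10 alternatives. rno-miR-200a-3p had 41.9, 73.4 and 108 against 88.1, 94.8 and 82.1, a log2 fold change of -0.25 ± 0.32 (edgeR adjusted p = 0.670). The highest of these was replicate 27, and without it the value was -0.61 ± 0.26 (edgeR adjusted p = 0.169). rno-miR-200a-5p likewise had 1.34, 2.06 and, in replicate 27, 6.30 normalized RPM against 4.57, 3.51 and 3.96. Its log2 fold change moved from -0.35 ± 0.55 (edgeR adjusted p = 0.702) to -1.21 ± 0.31 without that library, a DEM (edgeR adjusted p = 0.0544). For both strands of miR-200a, leaving out the highest of 3 livers lowers the value by itself. The share of all tested that were DEMs without replicate 27 is not given.

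rno-miR-200b-3p was also a DEM at high dose 3-d, with 298, 383 and 187 normalized RPM against 302, 901 and 845 in controls (log2 -1.24 ± 0.52, edgeR adjusted p = 0.400). Its groups overlapped through control replicate 1. Without that library the log2 fold change was -1.59 ± 0.31 (edgeR adjusted p = 0.125), and leaving out any of the other 5 ended the call. Without control replicate 1, 8.97% of all tested were DEMs. rno-miR-200a-3p (89.2, 71.9 and 55.3 normalized RPM) and rno-miR-429 (132, 184 and 112) became DEMs as well without control replicate 1. Their log2 fold changes moved from -0.52 ± 0.39 to -0.71 ± 0.27 (edgeR adjusted p = 0.391 without it) and from -0.37 ± 0.72 to -0.87 ± 0.27 (edgeR adjusted p = 0.357 without it). rno-miR-141-3p stood on the other side, at 113, 86.8 and 131 normalized RPM against 14.1, 88.6 and 43.9, with log2 fold changes of 1.11 ± 0.58 (edgeR adjusted p = 0.427) and, without control replicate 1, 0.74 ± 0.36 (edgeR adjusted p = 0.473). No member was a DEM at middle dose 3-d, with or without that library.

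At middle dose, the DEMs of the chromosome 5 cluster were rno-miR-429 at 28-d and rno-miR-200a-5p at 7-d. At 28-d rno-miR-429 had 126, 143 and 131 normalized RPM against 181, 260 and 183, 1.56-fold lower without overlap (log2 -0.64 ± 0.19, edgeR adjusted p = 0.0250). Its call was lost without control 28-d replicate 17 and under 4 of 10 alternatives. rno-miR-200a-3p, at 60.3, 58.1 and 58.1 against 75.0, 98.1 and 86.4, did not overlap with its controls but stayed under the fold threshold (log2 -0.55 ± 0.17, edgeR adjusted p = 0.0255). At 7-d rno-miR-200a-5p had 2.21, 2.64 and 1.75 normalized RPM against 4.57, 3.51 and 3.96 (log2 -0.85 ± 0.23, edgeR adjusted p = 0.0249), again without overlap, and the call was lost with all 12 controls pooled and in the single fit of all 48 libraries. It rested on 18 to 30 reads per treated liver and 38 to 43 per control, all below 5 normalized RPM. The guide strand of that hairpin, rno-miR-200a-3p, had 62.5, 92.2 and 67.5 against 88.1, 94.8 and 82.1 (log2 -0.25 ± 0.15, edgeR adjusted p = 0.243). At high dose 14-d and 28-d, and for rno-miR-200b-3p at every time point of the middle dose, no chromosome 5 member was a DEM.

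rno-miR-200c-3p, a guide strand of the chromosome 4 cluster and the rarest tested guide strand, was higher than controls in 4 conditions. At middle dose 28-d it had 12.8, 11.2 and 13.9 normalized RPM against 6.07, 5.17 and 6.70, 2.13-fold higher without overlap (log2 1.09 ± 0.20, edgeR adjusted p = 0.00265). At high dose 7-d it had 12.1, 19.2 and 16.4 against 7.31, 9.24 and 8.85, 1.88-fold higher without overlap (log2 0.91 ± 0.24, edgeR adjusted p = 0.0463), and was still a DEM without replicate 27 (log2 0.89 ± 0.27). These calls held with each library left out. At 14-d the call was less firm at both doses, since 1 control, replicate 15, had 2.98 normalized RPM beside 8.19 and 6.40 in the others. Low dose 14-d livers had 17.2, 6.46 and 14.9 (log2 1.14 ± 0.41, edgeR adjusted p = 0.0435), and middle dose 14-d livers had 7.35, 13.8 and 11.8 (log2 0.92 ± 0.35, edgeR adjusted p = 0.0887). Both groups overlapped with the controls and both calls were lost without control replicate 15. The low dose call was also lost without low dose 14-d replicate 42 and with library size alone. The middle dose call was also lost without middle dose 14-d replicate 32 or 33, with TMM normalization and with all 12 controls pooled.

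rno-miR-141-3p comes from the neighbouring hairpin of chromosome 4, and its ratio to rno-miR-200c-3p varied between groups. In the controls the reads of rno-miR-141-3p per read of rno-miR-200c-3p were 7.83, 7.73 and 6.96 at 7-d, 12.3, 16.8 and 16.2 at 14-d and 20.7, 25.98 and 15.5 at 28-d. In treated livers of 28-d the ratio was 10.2, 5.78 and 11.03 at low dose, 11.4, 11.2 and 9.42 at middle dose and 10.7, 14.4 and 17.4 at high dose, so low and middle dose lay below all 3 controls and high dose overlapped with them. At 14-d it was 3.69 to 6.93 at low, 5.86 to 8.48 at middle and 4.02 to 9.92 at high dose, each below all 3 controls. At 7-d it was 2.92 to 7.64, 6.79 to 10.8 and 3.87 to 8.52 at the same doses, each overlapping with the controls. Over 47 libraries Pearson's r between the 2 members was 0.20, and 0.50 for deviations from group means. At high dose 28-d rno-miR-141-3p had 94.2, 79.6 and 91.6 normalized RPM against 126, 134 and 104, without overlap but under the fold threshold (log2 -0.45 ± 0.16, edgeR adjusted p = 0.109).

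The strands left out of the tests had few reads. rno-miR-200b-5p, the passenger strand of the most abundant member, had 2 to 54 reads per library and 0.290 to 5.64 normalized RPM, with a median of 0.338 reads per 100 reads of rno-miR-200b-3p. rno-miR-141-5p had 0 to 29 reads. rno-miR-200c-5p had 4 reads in all 48 libraries together and 0 in the 12 controls, where a count of 0 allows up to 3 reads, or 10.2 RPM in control 3-d replicate 1 and 0.325 RPM in control 3-d replicate 2. These limits cover counting error only. rno-miR-200a-5p was the best recovered of the 5p strands, with a median of 3.89 reads per 100 reads of rno-miR-200a-3p, and the 2 arms of that hairpin had a Pearson's r of 0.84 over 47 libraries.

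A single edgeR fit of all 48 libraries gave the mean effect of each dose over the 4 time points. The 3 doses share their controls in it. The low dose averages here and below take in the 9 libraries numbered 40 to 48, which stood apart over the whole profile. In these averages a low dose effect and whatever else sets those libraries apart cannot be told apart. At low dose 3 of 6 members had an adjusted p below 0.05, beside 49.8% of all tested. rno-miR-429 was lower by a log2 fold change of -1.01 ± 0.19 (edgeR adjusted p = 5.21e-05), and rno-miR-200a-3p and rno-miR-200a-5p were higher by 0.31 ± 0.12 and 0.56 ± 0.21 (edgeR adjusted p = 0.0368 and 0.0273). At middle dose 2 of 6 passed, beside 36.5% of all tested, rno-miR-200a-5p at -0.56 ± 0.22 and rno-miR-200c-3p at 0.51 ± 0.16 (edgeR adjusted p = 0.0416 and 0.0137). At high dose 0 of 6 passed, also 0 at an unadjusted p below 0.05, beside 28.2% of all tested. rno-miR-429 had -0.25 ± 0.19 at middle dose and -0.37 ± 0.19 at high dose (edgeR adjusted p = 0.316 and 0.125).

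These counts turned on control 3-d replicate 1. Without it the members past the threshold in the dose averages rose from 5 to 10, as 5, 4 and 1 of 6 at low, middle and high dose, and the share of all tested rose to 52.5%, 42.2% and 30.6%. rno-miR-429 then passed at all 3 doses, with -1.12 ± 0.14 at low, -0.36 ± 0.14 at middle and -0.48 ± 0.14 at high dose (edgeR adjusted p = 6.74e-08, 0.0375 and 0.00995). rno-miR-200b-3p passed at low dose (-0.57 ± 0.21, edgeR adjusted p = 0.0237), and rno-miR-200a-3p passed at middle dose (-0.32 ± 0.12, edgeR adjusted p = 0.0354) but no longer at low dose. rno-miR-141-3p (-0.44 ± 0.18, edgeR adjusted p = 0.0453) and rno-miR-200c-3p (0.39 ± 0.17, edgeR adjusted p = 0.0480) newly passed at low dose. Leaving out control 14-d replicate 15 instead brought the number down to 3.

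Differences of the effects between doses were tested at each time point in the same fit, and 10 of them passed for members. At 3-d the high dose differed from the low dose in 2 members (13.6% of all tested), rno-miR-200a-3p (log2 -1.12 ± 0.25, edgeR adjusted p = 0.00747) and rno-miR-200a-5p (-1.42 ± 0.41, edgeR adjusted p = 0.0165). The middle dose differed from the low dose in 1 member (11.6% of all tested), rno-miR-200a-5p (-1.20 ± 0.41, edgeR adjusted p = 0.0490), and the high dose differed from the middle dose in 0 members by edgeR (0.332% of all tested). At an unadjusted p below 0.05 this last difference passed for 2 members and for 36 of the 301 tested. At 7-d the middle dose was above the low dose for 2 members (28.9% of all tested), rno-miR-200b-3p (1.54 ± 0.45, edgeR adjusted p = 0.0106) and rno-miR-429 (1.56 ± 0.39, edgeR adjusted p = 0.00319). The high dose differed from the low dose and from the middle dose in 0 members by edgeR (8.64% and 2.66% of all tested), and at an unadjusted p below 0.05 in 3 and 2 members (25.2% and 15.9% of all tested).

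At 14-d the middle dose was below the low dose for the strands of miR-200a (23.3% of all tested), with -0.90 ± 0.25 for rno-miR-200a-3p and -1.61 ± 0.43 for rno-miR-200a-5p (edgeR adjusted p = 0.0109 and 0.00672). The high dose was above the low dose for rno-miR-429 (1.07 ± 0.38, edgeR adjusted p = 0.0463, 19.3% of all tested) and differed from the middle dose in 0 members by edgeR (5.32% of all tested), and at an unadjusted p below 0.05 in 1 (18.3% of all tested). At 28-d the only differences that passed were between high and middle dose (10.6% of all tested), rno-miR-200a-3p higher (0.78 ± 0.25, edgeR adjusted p = 0.0382) and rno-miR-200c-3p lower (-0.95 ± 0.32, edgeR adjusted p = 0.0471) at high dose. High against low and middle against low passed for 0 members by edgeR (2.66% and 4.32% of all tested), and at an unadjusted p below 0.05 for 0 and 2 members (19.3% and 23.6% of all tested). Of the 10 differences, 8 were between another dose and the low dose at 3-d, 7-d or 14-d, and thus rest on the libraries numbered 40 to 48. Without control 3-d replicate 1 the count was 16. Shares of all tested were then 2.33% to 38.2% over the 12 differences, against 0.332% to 28.9% with it. The controls cancel here. For rno-miR-429, high minus low at 7-d went from 0.81 ± 0.38 to 0.81 ± 0.28 (edgeR adjusted p = 0.179 and 0.0434). rno-miR-141-3p then passed there too (1.13 ± 0.36, edgeR adjusted p = 0.0327, 15.6% of all tested). It also passed for middle minus low at 28-d (1.04 ± 0.36, edgeR adjusted p = 0.0465, 14.0% of all tested). Without any 1 of the 3 middle dose 28-d libraries or low dose 3-d replicate 44 the count was 6.

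Changes of an effect between 7-d and 28-d passed for 0 members at any dose by edgeR, beside 0.0%, 0.0% and 0.332% of all tested at low, middle and high dose. At an unadjusted p below 0.05 there were 1, 0 and 2 members and 14.0%, 9.63% and 15.9% of all tested. The largest was rno-miR-200b-3p at low dose, whose effect was higher at 28-d by a log2 fold change of 1.97 ± 0.63 (edgeR adjusted p = 0.193). In the vehicle controls, 28-d against 7-d passed for 0 members by edgeR (5.98% of all tested) and at an unadjusted p below 0.05 for 2 (19.9% of all tested). These were rno-miR-141-3p, at 126, 134 and 104 against 57.2, 71.5 and 61.6 normalized RPM (log2 0.93 ± 0.39, edgeR adjusted p = 0.151), and rno-miR-200a-5p, at 3.28, 1.41 and 1.49 against 4.57, 3.51 and 3.96 (log2 -0.92 ± 0.43, edgeR adjusted p = 0.198).

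A list of 8 other epithelial miRNAs (miR-203a, miR-203b, miR-205, miR-183, miR-96, miR-182, miR-31a and miR-375), all tested, was set beside the family. In the conditions where rno-miR-429 was lower, the calls among these 8 were in the higher direction for 2 and in the lower for 0 at low dose 7-d, 3 and 0 at low dose 14-d, 3 and 0 at high dose 7-d, and 4 and 1 at middle dose 28-d. Of all 301 tested, 28.9%, 32.6%, 21.3% and 32.9% were DEMs there. Their summed level was 5648 to 7482 normalized RPM at low dose 7-d against 4164 to 4840 in its controls. Lists of miRNAs of other cell types were counted in the same conditions, where these shares of all tested also apply. At low dose 7-d, 2 of 4 leukocyte, 2 of 4 red blood cell and 2 of 6 stellate cell and smooth muscle miRNAs were lower, 1 of 4 of hepatocytes was higher and 0 of 2 of endothelium were called. Summed leukocyte levels were 1845 to 2829 normalized RPM there against 2970 to 3477 in controls, and hepatocyte levels 296612 to 355005 against 213537 to 242876. The hepatocyte miRNAs did not move together. Log2 fold changes were 0.75 for rno-miR-122-5p and 0.49 for rno-miR-192-5p, but -0.25 for rno-miR-122-3p and -0.15 for rno-miR-194-5p. At low dose 14-d, 2 of 4 leukocyte, 1 of 4 red blood cell and 1 of 6 stellate cell and smooth muscle miRNAs were lower, and of the 4 of hepatocytes 1 was lower and 1 higher. At high dose 7-d, 3 of 4 red blood cell miRNAs were lower (786 to 3416 against 3815 to 6241 normalized RPM) and 2 of 6 of stellate cells and smooth muscle were higher, with 0 of 4 called for leukocytes and for hepatocytes. At middle dose 28-d, 3 of 4 red blood cell and 2 of 4 hepatocyte miRNAs were lower, 2 of 6 of stellate cells and smooth muscle were higher and 0 of 4 of leukocytes were called. For endothelium 0 of 2 were called in these last 3 conditions. Their part in the levels of the family was not tested. Of 3 pancreas miRNAs, 1 was tested, rno-miR-375-3p, which is also among the 8 epithelial miRNAs, and it was a DEM in 0 conditions.

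The summed level of the tested members over the 16 group means was most like those of rno-miR-30c-5p (Pearson's r of 0.72), rno-miR-143-5p (0.71), rno-miR-335 (0.65), rno-miR-503-3p (0.65) and rno-miR-93-3p (0.61), on log2 (normalized RPM + 1). Without the 3-d groups the values were 0.86, 0.78, 0.79, 0.75 and 0.84 over 12 group means, and the 5 most alike were then rno-miR-30c-5p, rno-miR-93-3p, rno-miR-511-5p (0.81), rno-miR-19b-3p (0.81) and rno-miR-128-3p (0.80). The groups share the fits' normalization and, for the low dose, the libraries that stood apart. The sum mostly follows rno-miR-200b-3p and rno-miR-429. Their means over the 48 libraries were 482 and 159 normalized RPM, of 827 for all 9 members. The likeness thus describes these members more than the others.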

How the data were processed

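The authors trimmed adaptors from single-end reads of Illumina TruSeq small RNA libraries, discarded reads shorter than 18 or longer than 25 bases, and quantified the rest against miRBase release 21 with miRDeep2. The deposited values are raw counts per mature miRNA and precursor, 847 combinations, not normalized, filtered or pooled. Ligation-based libraries recover different sequences unequally, so levels of different miRNAs are not strictly comparable. The 9 members are each listed with 1 precursor. Of 764 mature miRNAs, 664 had a read, and 301 reached 5 RPM in 3 libraries or more and were tested with edgeR 4.0.16 in R 4.3.3, using the quasi-likelihood F-test after upper quartile normalization. Conditions were fitted with their controls (6 libraries), and dose averages and differences in a single fit of 48 libraries, adjusted by Benjamini-Hochberg over the 301 miRNAs. SE came from the log2 fold change and F. Printed levels use the 48-library factors, so a fold of means can differ slightly from a fitted one. With 3 against 3, an exact permutation test cannot go below p = 0.1, so none was used.

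The members and lists were chosen with earlier results of these data known. Text names every member, the lists by counts with single values only beside a result, and the 5 miRNAs most like the family. Rats are separate animals, and running numbers are not shared between groups. The first principal component was computed from log2 (normalized RPM + 1), centred by miRNA. Alternatives were TMM, DESeq2 1.42.0 size factors and Wald test, library size alone, other filters, the exact test, pooled controls, the single fit, adjusted p and each library left out. The average over 7-d to 28-d, the component and the values without replicates 27 and 29 beside their results were chosen after seeing the data. Tests were tested on simulated data. Sequences are from RefSeq tables of GRCr8.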

Additional observations from a re-analysis of the deposited data

Results flagged for a closer look

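Effects of 2 doses at the same time point differed for a member in 10 tests of the difference itself (edgeR, single fit of 48 libraries, adjusted p below 0.05). High minus low dose at 3-d gave a log2 difference of -1.116 for rno-miR-200a-3p and -1.422 for rno-miR-200a-5p, and middle minus low dose at 3-d gave -1.199 for rno-miR-200a-5p. Middle minus low dose at 7-d gave 1.535 for rno-miR-200b-3p and 1.555 for rno-miR-429. At 14-d, high minus low dose gave 1.068 for rno-miR-429, and middle minus low dose gave -0.8965 for rno-miR-200a-3p and -1.609 for rno-miR-200a-5p. At 28-d, high minus middle dose gave 0.778 for rno-miR-200a-3p and -0.9484 for rno-miR-200c-3p. The first 8 of these take the low dose libraries numbered 40 to 48 as 1 side of the difference. Groups of 3 libraries were too small for a test of single outlying libraries.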

How the results depend on the processing

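Of the 15 calls of a member in a condition, none changed sign under any alternative. Over alternatives that kept all libraries, 120 of 144 values kept the call and 24 lost it, and over those with a library left out 77 of 90 kept it and 13 lost it. The members lower than controls numbered 9 in the report, 16 with no filter (where more members are tested), and 8 to 13 with a library left out. Those higher numbered 6, 1 with at least 5 RPM in every library (where fewer members are tested), and 3 to 8 with a library left out. Members past the threshold in the dose averages numbered 5, 2 with library size alone, 4 without the 3-d groups, and 3 to 10 with a library left out. In the differences they numbered 10, 6 with no filter, and 6 to 16 with a library left out. The cause was not tested. Among fold changes that were no calls, pooling all 12 controls turned rno-miR-200b-3p at low dose 28-d to -0.0539 and rno-miR-141-3p at high dose 28-d to 0.13, and leaving out a library turned rno-miR-200b-3p at low dose 28-d (range -0.0628 to 0.96), rno-miR-429 at high dose 3-d (range -0.87 to 0.0617), rno-miR-200a-3p at high dose 7-d (range -0.61 to 0.0339) and rno-miR-200a-5p at high dose 7-d (range -1.21 to 0.019). Relative to upper quartile normalization, the median log2 fold change of all tested miRNAs shifted by -0.21 to 0.28 with library size alone, -0.23 to 0.11 with TMM and -0.22 to 0.12 with DESeq2 size factors. No paired analysis was possible because the groups share no replicate numbers. Depth limits rno-miR-200b-5p, rno-miR-141-5p and rno-miR-200c-5p, and every member in control 3-d replicate 1. Among the tested members it also limits rno-miR-200a-5p, with a median of 33 reads per library (4 to 107) and 3.4 normalized RPM.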
